A study of Mus musculus with 6 samples.

Results

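The genes described here encode the non-collagen part of the extracellular matrix: glycoproteins of basement membranes and of interstitial matrix, proteoglycans, elastic fibre proteins, and enzymes that cross-link or cut matrix with their inhibitors. The 32 genes were taken by name from the 41053 gene names counted in each library, and all 32 were present, of which 31 passed the filter on low counts and were tested. RNA came from 6 cultured lines of spermatogonial stem cells from adult mice, the cells that sustain sperm production. Every line had been electroporated with a plasmid for green fluorescent protein, sorted for fluorescence and subcloned. A guide RNA against Ephb2, an Eph receptor tyrosine kinase, was or was not included, giving 3 lines labelled Ephb2-KO and 3 labelled wild type, all grown in StemPro-34-based medium with growth factors. Each line gave 1 library of polyadenylated, strand-specific RNA. Replicates are numbered 1 to 3 in each group, with numbers 1 and 2 at passage 20 and number 3 at passage 18 in both groups. Whether equal numbers mark a common origin, and whether other cells were grown with the stem cells, is not stated in the labels. The p-values measure the spread between these subclones, and passage cannot be told apart from replicate number 3.

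The extracellular matrix is the secreted protein and sugar network around cells. Laminins, each an assembly of an α, a β and a γ chain, form the basement membrane together with nidogens, perlecan, agrin and type IV collagen. In the testis, spermatogonial stem cells lie on the basement membrane of the seminiferous tubule and bind laminin through integrins. Fibronectin, thrombospondins, elastic fibre proteins and lysyl oxidases belong mainly to the interstitial matrix, where fibroblasts and other mesenchymal cells are the main makers.

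Total counts ran from 21772404 to 33140336 in libraries labelled Ephb2-KO and from 24928648 to 34047758 in wild-type libraries. CPM is the usual depth-scaled count, here by the TMM-adjusted library size. The floor of 3 counts lay at 0.0803 to 0.147 CPM, depending on the library, and covers counting error only. Ephb2 itself stood at 37.1, 16.5 and 13.4 CPM in libraries labelled Ephb2-KO, against 21.3, 27.1 and 10.8 CPM in wild-type libraries 1, 2 and 3, so its transcript did not set the groups apart (a count over the whole gene does not report a small edit), and each direction given below rests on the labels. Having counts does not check the labelled cell type, as 0 of 7 endothelial and 0 of 7 macrophage markers were without them. Of 15 germ cell and undifferentiated spermatogonia markers, 0 were likewise without counts over the 6 libraries together. One of them, Tex19.1, was nearly absent from 1 line. It stood at 0.338, 355 and 205 CPM in lines labelled Ephb2-KO 1, 2 and 3, against 251, 284 and 208 CPM in wild-type lines. The 15 markers summed to 3666, 3688 and 2071 CPM in lines labelled Ephb2-KO 1, 2 and 3, against 3389, 3903 and 2321 CPM in wild-type lines 1, 2 and 3. The 20 fibroblast and stromal markers, none of them among the 32 genes, summed to 5234, 5954 and 22292 CPM in lines labelled Ephb2-KO 1, 2 and 3, against 3397, 4704 and 19285 CPM in wild-type lines 1, 2 and 3. In a split made after the values were seen, 10 of the 20 encode matrix proteins themselves (Col1a1, Col1a2, Col3a1, Col5a2, Col6a3, Postn, Dcn, Lum, Mfap5 and Dpt), and Postn, Dcn, Lum and Mfap5 are also counted in the further matrix lists given last. These 10 carried between 81.3% and 90.0% of the list's sum, so the list is not a reading separate from matrix genes. The other 10 summed to 525, 1115 and 2317 CPM in lines labelled Ephb2-KO 1, 2 and 3, against 439, 871 and 1951 CPM in wild-type lines 1, 2 and 3. Of the 20, Tcf21 had no count in any library, and the other 19 were tested. Markers of other testis cells were low: the summed levels of the lists for Sertoli, Leydig, peritubular myoid, endothelial and macrophage cells ran from 1.52 to 104 CPM in libraries labelled Ephb2-KO and from 1.11 to 89.1 CPM in wild-type libraries. Fshr of Sertoli cells and Hsd3b1 and Lhcgr of Leydig cells had no count in any library. Bulk RNA cannot tell fewer cells of a type from less RNA per cell.

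The 32 matrix genes together summed to 6257, 9989 and 20661 CPM in lines labelled Ephb2-KO 1, 2 and 3, against 4438, 8656 and 16480.5 CPM in wild-type lines 1, 2 and 3. The sum was lowest in replicate 1, higher in replicate 2 and highest in replicate 3 in both groups, and it was higher in the library labelled Ephb2-KO at each number, at 1.41, 1.15 and 1.25 times the wild-type sum. The fibroblast and stromal markers had the same order of numbers within each group, and their sum was 1.54, 1.27 and 1.16 times the wild-type sum in the library labelled Ephb2-KO at numbers 1, 2 and 3. Whether cells of that kind take part in the matrix differences was not tested. Among single genes, 20 of 31 tested were highest at number 3 in both groups, 8 were highest at number 2 in both groups and 0 were highest at number 1. The order of the 3 numbers was the same in both groups for 26 of the 31. These orders were not counted over all tested genes, where same-numbered libraries also deviated together, so they are not a trait of matrix genes alone.

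**Figure D1:**
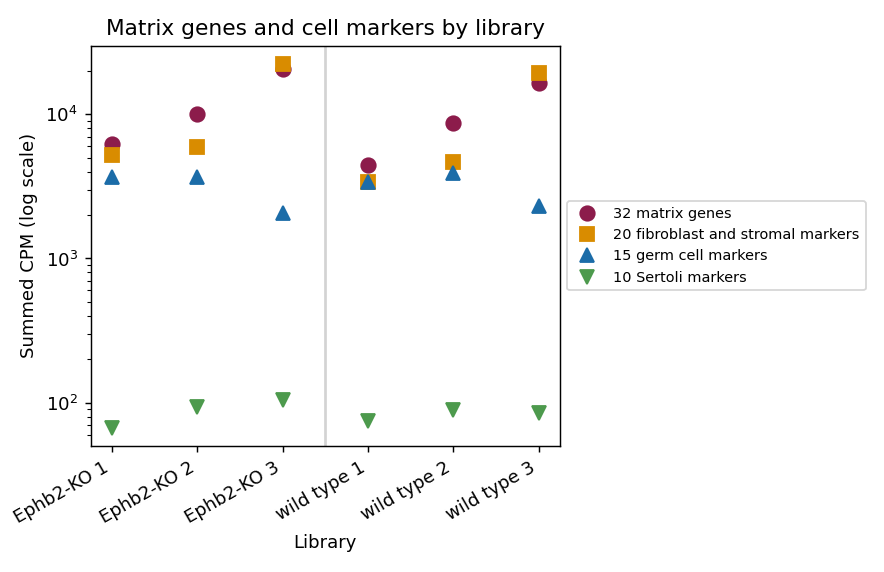
Summed CPM on a log scale, by library, for the 32 matrix genes, 20 fibroblast and stromal markers, 15 germ cell markers and 10 Sertoli markers; each point is 1 library. Matrix genes and fibroblast markers stand highest in both replicate 3 libraries, where germ cell markers stand lowest, at 2071 CPM in Ephb2-KO 3 and 2321 CPM in wild type 3.

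**Figure D2:**
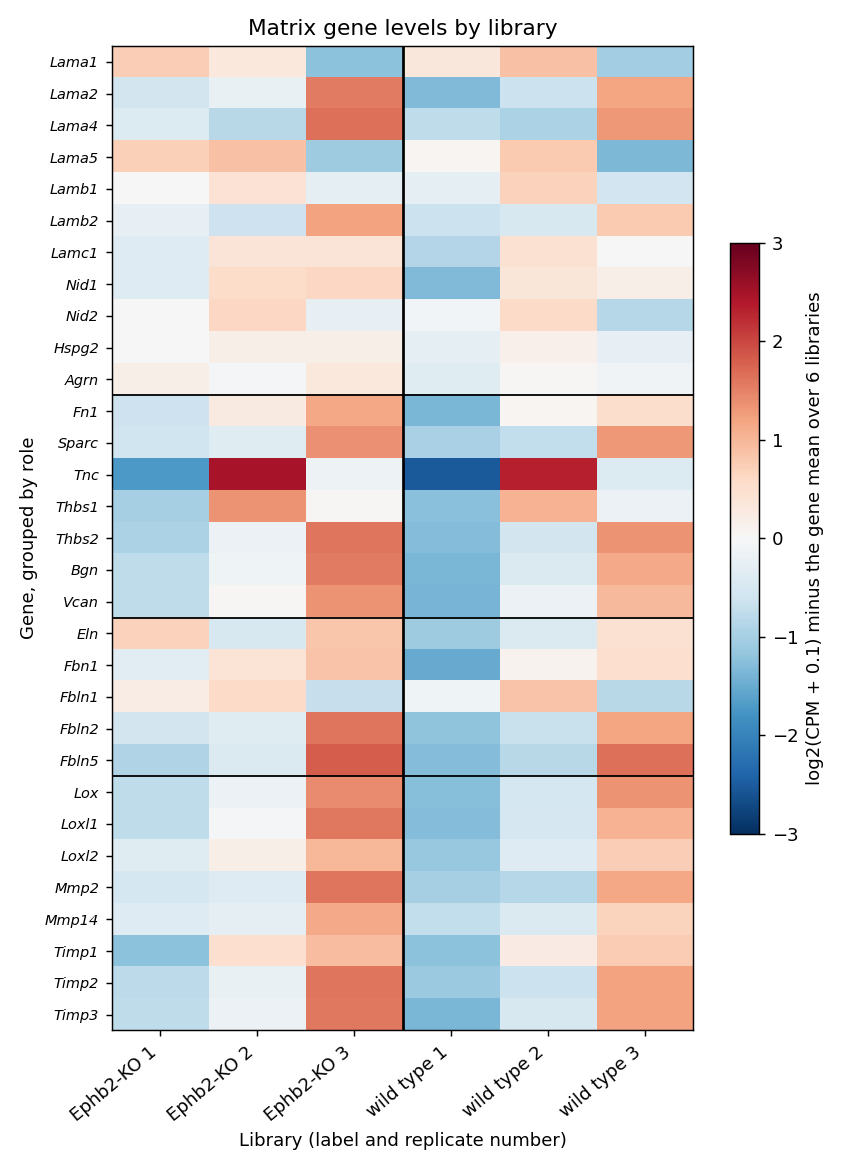
Level of each of the 31 tested matrix genes in each library, as log2(CPM + 0.1) minus the mean of that gene over the 6 libraries; black lines part the role classes (basement membrane, interstitial and matricellular, elastic fibre, enzymes and inhibitors) and the groups. Columns with the same replicate number resemble each other across groups, with 20 genes highest at number 3 in both. The share of all tested genes highest at number 3 in both was not counted.

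Basement membrane genes split by chain. On the scale of CPM per kilobase of exon (RPKM), which allows genes to be compared, the β chain gene Lamb1 (chromosome 12, 31265234 to 31329644, GRCm38) averaged 65.2 over the 6 libraries, the γ chain gene Lamc1 20.3 and the β chain gene Lamb2 13.2. The α chain genes were lower, at 1.04 RPKM for Lama1, 3.36 for Lama2, 3.56 for Lama4 and 2.85 for Lama5. Lamb3, a β chain of epithelial laminin, had 4, 7 and 2 counts in libraries labelled Ephb2-KO and 16, 2 and 4 counts in wild-type libraries. It did not pass the filter on low counts and was the only one of the 32 genes left untested.

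The 4 laminin α chain genes showed opposite patterns over the replicate numbers. Lama2 (chromosome 10, 26980036 to 27619758), the main α chain of muscle and mesenchymal basement membranes, stood at 29, 36 and 125 CPM in the lines labelled Ephb2-KO, against 16.9, 26.9 and 96 CPM in wild-type lines 1, 2 and 3. Lama4 (chromosome 10, 38965515 to 39110188), an α chain of mesenchymal and vascular basement membranes, stood at 24, 17.9 and 101 CPM in lines labelled Ephb2-KO and at 18.8, 16.5 and 79.1 CPM in wild-type lines. Both genes were highest in the replicate 3 lines of both groups, with no overlap between the 2 passage 18 lines and the 4 passage 20 lines. How many of all tested genes lack such overlap was not counted, here or for the genes below. Lama5 (chromosome 2, 180176373 to 180225859), a widely expressed epithelial α chain, stood at 44.8, 50.3 and 13 CPM in lines labelled Ephb2-KO and at 28.6, 47.7 and 10.6 CPM in wild-type lines. Lama1 (chromosome 17, 67697265 to 67822645), the α chain of early embryonic basement membranes, stood at 14.3, 10.7 and 3.59 CPM in lines labelled Ephb2-KO and at 10.9, 15.8 and 4.08 CPM in wild-type lines. These genes were lowest in the replicate 3 lines of both groups, again without overlap between passages.

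Shares were taken of the RPKM summed over Lama1, Lama2, Lama4 and Lama5. The α chain gene Lama3, not among the 32, was left out of this sum. It averaged 0.927 RPKM over the 6 libraries, from 0.475 to 1.35, so shares of all α chain transcripts would be lower. Lama2 and Lama4 together made up 40.9%, 39.9% and 91.3% of the sum in lines labelled Ephb2-KO 1, 2 and 3. In wild-type lines they made up 41.5%, 34.1% and 90.1%. The share of Lama5 was 42.8%, 47.9% and 6.51% in lines labelled Ephb2-KO and 40.1%, 47.2% and 6.78% in wild-type lines. For both shares the gap between number 3 and the other numbers was wider than the gap between the groups at any number. For β chains, Lamb2, found at synapses and in kidney basement membrane, held 13.4%, 8.20% and 33.9% of the β chain RPKM in lines labelled Ephb2-KO and 12.6%, 7.67% and 32.2% in wild-type lines, with Lamb1 holding nearly all of the rest.

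**Figure D3:**
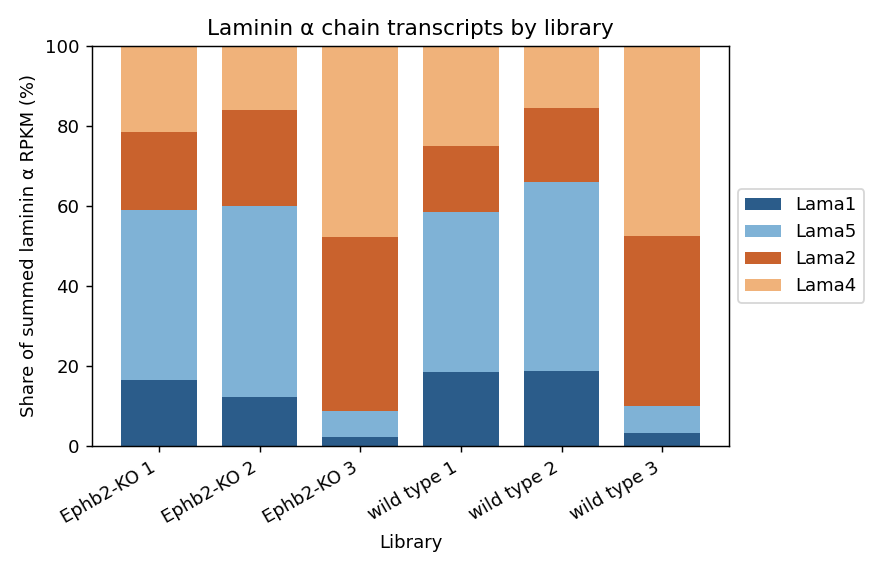
Share of each laminin α chain gene in the summed RPKM of Lama1, Lama2, Lama4 and Lama5, by library, as bars that add to 100%. Lama2 and Lama4 fill 91.3% of the bar in Ephb2-KO 3 and 90.1% in wild type 3, against at most 41.5% in each of the 4 replicate 1 and 2 libraries.

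Promoter sequence was at hand in the RefSeq table (GRCm38.p6) for 21 of the 32 genes, as 300 bases from 250 before to 50 after each start. Lama2 and Lama5 are shown because they are the α chain genes of the 32 with a promoter in that table. They also lay on opposite sides of the passage comparison. The 250 bases before the start of Lama2 (chr10:27616943-27617192, minus strand) and of Lama5 (chr2:180225860-180226109, minus strand) read 5′ to 3′, with CArG boxes and GC boxes of either strand in capitals:
Lama2: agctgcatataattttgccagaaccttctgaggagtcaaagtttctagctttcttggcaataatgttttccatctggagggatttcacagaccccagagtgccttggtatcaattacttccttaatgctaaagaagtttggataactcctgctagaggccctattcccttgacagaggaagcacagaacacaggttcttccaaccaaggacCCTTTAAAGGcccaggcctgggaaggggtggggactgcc
Lama5: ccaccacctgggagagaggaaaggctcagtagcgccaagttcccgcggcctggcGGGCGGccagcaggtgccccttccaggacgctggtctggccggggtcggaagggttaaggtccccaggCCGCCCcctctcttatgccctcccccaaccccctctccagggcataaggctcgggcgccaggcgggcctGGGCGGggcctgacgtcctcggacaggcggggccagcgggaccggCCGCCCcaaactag
The capitals mark 1 CArG box, the serum response factor motif, starting 39 bases before the start of Lama2, and 4 GC boxes (GGGCGG, read by Sp1-type factors) in Lama5. The start used by RefSeq for Lama2 lies inside the gene span given here, and the GC box of Lama2 counted next was not within these 250 bases. Over the 300 bases and both strands, GC boxes stood in 17 of 21 matrix gene promoters (81%), against 68.5% of 10944 tested genes with a promoter in the table. The TATA box (TATAAA) stood in Tnc and Thbs2 (9.52% of the 21 genes, against 8.8% of tested genes), and the TEAD motif (GGAATG) in Lamb3, Nid1 and Timp1 (14.3% against 14.6%). The AP-1 motif TGANTCA was found in 0 of the 21, against 6.31% of tested genes, and the CArG box in Lama2 alone (4.76% against 1.53%). Motifs that overlap were counted under each name, and a match of letters shows no binding.

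The remaining laminin chains and the nidogens differed in which number was highest. Lamb1, a partner of most α chains, stood at 623, 830.3 and 513 CPM in the lines labelled Ephb2-KO, against 504, 993 and 417 CPM in wild-type lines. It was highest at number 2 and lowest at number 3 in both groups. Nid1 (chromosome 13, 13437602 to 13512275), the nidogen that links laminin to type IV collagen, stood at 321, 611 and 643 CPM in lines labelled Ephb2-KO and at 168, 539 and 471 CPM in wild-type lines. Its closest relative Nid2 (chromosome 14, 19751257 to 19811787) stood at 156, 245 and 134 CPM in lines labelled Ephb2-KO and at 149, 235 and 87 CPM in wild-type lines. The ratio of Nid1 to Nid2 in RPKM was 1.66, 2.02 and 3.87 in lines labelled Ephb2-KO 1, 2 and 3 and 0.913, 1.85 and 4.37 in wild-type lines, highest at number 3 in both groups. Lamb2 stood at 54.9, 42.1 and 149 CPM in lines labelled Ephb2-KO and at 41.2, 46.8 and 112 CPM in wild-type lines. Lamc1, the common γ chain, ranged from 123 to 210.4 CPM in lines labelled Ephb2-KO and from 86.6 to 221 CPM in wild-type lines.

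The heparan sulphate proteoglycans of the basement membrane had the smallest ratios of highest to lowest library among the 31 tested genes. Hspg2, which encodes perlecan (chromosome 4, 137468769 to 137570630), had 205 ± 12.1 CPM in lines labelled Ephb2-KO and 174 ± 30.8 CPM in wild-type lines (SD, n = 3 each). Agrn, which encodes agrin (chromosome 4, 156165290 to 156197488), had 31.4 ± 3.64 CPM in lines labelled Ephb2-KO and 25.5 ± 3.39 CPM in wild-type lines (SD, n = 3 each). Group ranges overlapped for both genes. Hspg2 lies 633 kb from the end of Ephb2 on the same chromosome, and its log2 fold change without pairing was 0.23 (SE 0.20, edgeR, adjusted p = 1.0 over all genes).

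Interstitial and matricellular genes included the pair with the highest levels per length, Sparc and Bgn. Sparc (chromosome 11, 55394500 to 55420080), a collagen-binding matricellular protein also called osteonectin, averaged 642 RPKM, the highest of the 32. It stood at 1128, 1338 and 4415 CPM in the lines labelled Ephb2-KO, against 871, 1023 and 4192 CPM in wild-type lines 1, 2 and 3. Bgn (chromosome X, 73483602 to 73495933), the small leucine-rich proteoglycan biglycan, stood at 564, 888 and 2833 CPM in lines labelled Ephb2-KO and at 369.9, 714 and 2125 CPM in wild-type lines. Each had both replicate 3 libraries above all 4 others. Fn1 (chromosome 1, 71585520 to 71653200), which encodes fibronectin, stood at 907, 1676 and 3111 CPM in lines labelled Ephb2-KO and at 536, 1459 and 2017 CPM in wild-type lines. It was lowest in number 1 and highest in number 3 in each group, and the passage 18 and passage 20 lines did not overlap. Vcan, the large hyaluronan-binding proteoglycan versican (chromosome 13, 89655312 to 89742509), stood at 64.3, 112 and 276 CPM in lines labelled Ephb2-KO and at 41.2, 97.3 and 215 CPM in wild-type lines.

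Thrombospondins and tenascin did not share 1 pattern. Thbs1 (chromosome 2, 118111876 to 118127133), an activator of latent TGF-β, stood at 214, 1092 and 443 CPM in lines labelled Ephb2-KO and at 181, 880.1 and 381 CPM in wild-type lines. Thbs2 (chromosome 17, 14665500 to 14694262), its close relative from fibroblasts, stood at 193, 330.0 and 1136 CPM in lines labelled Ephb2-KO and at 151, 253 and 949 CPM in wild-type lines. Thbs1 was highest at number 2 in both groups and Thbs2 at number 3. The ratio of Thbs1 to Thbs2 in RPKM was therefore 1.08, 3.23 and 0.380 in lines labelled Ephb2-KO 1, 2 and 3, against 1.17, 3.39 and 0.391 in wild-type lines. Tnc (chromosome 4, 63959785 to 64047015), the anti-adhesive glycoprotein tenascin-C, stood at 7.75, 144 and 23.2 CPM in the lines labelled Ephb2-KO, against 4.47, 132 and 19.7 CPM in wild-type lines. Its number 2 lines stood far above the others in both groups, and no other tested gene of the 32 spread as widely over the numbers.

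Elastic fibre genes included the gene with the widest passage difference. Fbln5 (chromosome 12, 101746565 to 101819055), a fibulin needed for elastic fibre assembly, stood at 10.9, 15.2 and 73 CPM in lines labelled Ephb2-KO and at 8.25, 11.4 and 64.5 CPM in wild-type lines. Fbln2 (chromosome 6, 91212455 to 91272540), another fibulin, stood at 327, 367 and 1449 CPM in lines labelled Ephb2-KO and at 205, 301 and 1072 CPM in wild-type lines. Both were highest at number 3, whereas Fbln1 (chromosome 15, 85205949 to 85286535) stood at 99, 127 and 52.4 CPM in lines labelled Ephb2-KO and at 77.2, 154 and 47.4 CPM in wild-type lines and was lowest there. Fbn1 (chromosome 2, 125300594 to 125507993), the microfibril protein fibrillin-1, stood at 133, 224 and 307 CPM in the lines labelled Ephb2-KO, against 59.7, 181 and 238 CPM in wild-type lines. Eln, which encodes elastin itself, was low, between 1.80 and 4.62 CPM in lines labelled Ephb2-KO and between 1.15 and 3.51 CPM in wild-type lines.

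All 8 enzyme and inhibitor genes were highest in number 3 in both groups. Mmp2 (chromosome 8, 92827328 to 92853417), gelatinase A, stood at 247, 274 and 1099 CPM in the lines labelled Ephb2-KO, against 181, 198 and 804 CPM in wild-type lines 1, 2 and 3. Timp2 (chromosome 11, 118301069 to 118355740), an inhibitor that also takes part in activating gelatinase A, stood at 211, 312 and 1104 CPM in lines labelled Ephb2-KO and at 168, 232 and 841 CPM in wild-type lines. The ratio of Mmp2 to Timp2 in RPKM was 1.51, 1.13 and 1.28 in lines labelled Ephb2-KO and 1.39, 1.09 and 1.23 in wild-type lines, a narrow range beside the change in either level. Mmp14 (chromosome 14, 54431604 to 54441258), the membrane-bound protease that activates gelatinase A, stood at 127, 138 and 364 CPM in lines labelled Ephb2-KO and at 100.1, 124 and 265 CPM in wild-type lines. Timp3 (chromosome 10, 86300372 to 86349506), the inhibitor that binds to matrix, stood at 89, 133 and 447 CPM in lines labelled Ephb2-KO and at 57.6, 108 and 349 CPM in wild-type lines. These 4 genes did not overlap between passages, a split that was not counted over all tested genes. Timp1, another secreted metalloprotease inhibitor, had 73.3 ± 44.1 CPM in lines labelled Ephb2-KO and 65.1 ± 37.7 CPM in wild-type lines (SD, n = 3 each).

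Lysyl oxidases cross-link collagen and elastin. Lox (chromosome 18, 52516069 to 52529867) stood at 240.5, 359 and 1077 CPM in lines labelled Ephb2-KO and at 166, 279.9 and 1027 CPM in wild-type lines. Loxl1 (chromosome 9, 58287723 to 58313212), which acts on elastic fibres, stood at 25.3, 41.2 and 127 CPM in lines labelled Ephb2-KO and at 17.2, 30.4 and 88.2 CPM in wild-type lines. Loxl2 (chromosome 14, 69609068 to 69695834), which acts on type IV collagen, stood at 27.9, 40.2 and 70.7 CPM in lines labelled Ephb2-KO and at 16, 27 and 59.2 CPM in wild-type lines. The 3 oxidase genes were lowest in number 1 and highest in number 3 in each group.

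The lines labelled Ephb2-KO were set against the wild-type lines to ask how the transcriptome differs where the guide against Ephb2 was used. Across the 6 libraries taken as independent, 0 of the 31 tested matrix genes passed (edgeR's quasi-likelihood F-test with adjustment after Benjamini and Hochberg, adjusted p = 1.0 for each), as for all 15263 tested genes (0%). At an unadjusted p under 0.05 there were 0 of 31 matrix genes, against 0.21% of all genes. DESeq2 called 0 of the 31, and 0 at an unadjusted p under 0.05, against 0.0262% of all genes by adjusted p. Group ranges overlapped for each of the 31 genes. Of all tested genes, 0.839% had every library labelled Ephb2-KO above every wild-type library, so 0 of 31 is near that share. The reverse direction was not counted over all genes. The 31 log2 fold changes ran from -0.10 to 0.71 with SE from 0.20 to 1.34. Of these, 29 lay above 0, beside 8083 of all 15263 tested genes. The median of the 31 was 0.32, beside 0.01 over all tested genes. That median depended on single libraries: it was -0.26 without Ephb2-KO replicate 3, 0.02 without wild-type replicate 1, 0.53 without Ephb2-KO replicate 2, 0.65 without Ephb2-KO replicate 1 and 0.93 without wild-type replicate 3.

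Compared within replicate numbers, most matrix genes stood somewhat higher in the line labelled Ephb2-KO. Of the 31, 24 (77.4%) were higher in 3 of 3 numbers, against 15.8% of all tested genes, 6 were higher in 2, 1 (Lama1) was higher in 1, and 0 were lower in 3 of 3, against 12.2% of all tested genes. The median log2 difference of the 31 was 0.50, 0.20 and 0.37 at numbers 1, 2 and 3, beside 0.00, 0.00 and 0.06 over all tested genes. Because same-numbered libraries deviated together, a fit with the number as a block was made beside the unpaired one. In it 0 of 31 matrix genes passed over all genes (edgeR adjusted p from 0.741 to 0.925), against 0.0262% of all genes. At an unadjusted p under 0.05, 20 were higher and 0 lower, where 4.38% of all tested genes were higher. Without both number 1 lines 14 were higher, against 3.91% of the genes tested in that fit. Without both number 2 lines 23 were higher, against 9.35%. Without both number 3 lines, which is the value within passage 20, 11 were higher, against 1.41%, and 0 of the 31 were lower in each of these fits. Passage 18 held 1 line per group and gives no test of its own.

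By role, all 7 interstitial and matricellular genes and all 8 enzymes and inhibitors were higher in 3 of 3 numbers, with 3 of 5 elastic fibre genes and 6 of 11 basement membrane genes. The blocked median log2 fold change was 0.36, 0.41, 0.46 and 0.27 in these classes, in that order. Blocked values of Loxl2, Fn1, Lama2, Nid1 and Loxl1 were 0.54 (SE 0.14), 0.53 (SE 0.14), 0.52 (SE 0.13), 0.52 (SE 0.15) and 0.51 (SE 0.12). Mmp2 had the most even differences, with log2 values of 0.45, 0.47 and 0.45 at numbers 1, 2 and 3 and a blocked value of 0.46 (SE 0.11). Fbn1 had 0.61 (SE 0.16), with 1.15 at number 1 and 0.31 and 0.36 at numbers 2 and 3. Eln, the highest estimate at 0.75 (SE 0.38), was higher in 2 of 3 numbers and rested on number 1, where its log2 difference was 1.81 at these low levels. The laminin chain genes Lama1, Lamb1, Lamb2 and Lamc1, with Agrn, Eln and Fbln1, were each lower at number 2 in the line labelled Ephb2-KO, by log2 values from -0.55 for Lama1 to -0.02 for Eln.

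Other readings moved with the matrix genes within numbers. Of 19 tested fibroblast and stromal markers, 10 were higher in 3 of 3 numbers and 0 lower, with a blocked median of 0.34. These were 7 of the 10 that encode matrix proteins and 3 of the 9 others tested, with blocked medians of 0.35 and 0.34. All 7 tested mitochondrially encoded genes were higher in 3 of 3 numbers, with a blocked median of 0.58, and the 13 such genes on the list, 4 of them without counts, summed to 13534, 18274 and 8435 CPM in lines labelled Ephb2-KO 1, 2 and 3, against 7152, 13191 and 6541 CPM in wild-type lines 1, 2 and 3. Of 15 germ cell markers 0 were higher in 3 of 3 numbers and 2 were lower, a share near the 12.2% of all tested genes, with a blocked median of -0.06. The part of fibroblast-type cells or of RNA quality in the matrix differences was not tested.

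**Figure D4:**
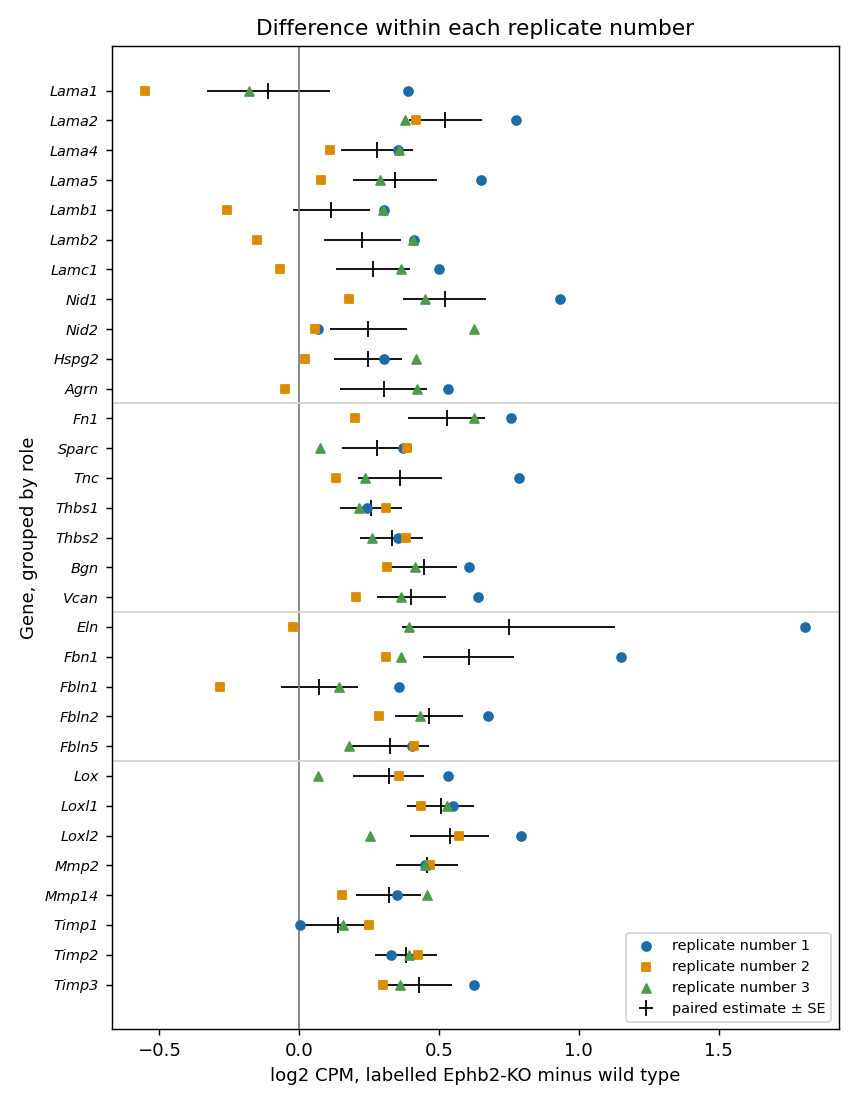
Difference in log2 CPM (prior count 2), labelled Ephb2-KO minus wild type, within each replicate number for the 31 tested matrix genes, with the blocked edgeR estimate and its SE in black. For 24 genes all 3 points lie right of 0; Mmp2, Loxl1 and Timp2 have the points closest together among the enzymes and inhibitors, and Eln at number 1 lies farthest out at 1.81.

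The 2 passage 18 lines were set against the 4 passage 20 lines, with the group as a covariate. Of the 31 matrix genes, 16 were higher at passage 18, against 15.4% of all tested genes, and 3 were lower, against 10.4% (the same edgeR test, adjusted p under the 0.05 threshold). Same-numbered lines deviated together, so the 2 passage 18 lines may not vary independently and these p-values may be too small. The 31 log2 fold changes had a median of 1.26, beside -0.06 over all tested genes. The called genes numbered 19, but 8 without Ephb2-KO replicate 3 and 9 without wild-type replicate 3, each of which leaves 1 line at passage 18 that is assumed to vary like the others. Lama2, Lama4, Sparc, Fbln2, Fbln5, Mmp2 and Timp2 passed with either of these libraries left out.

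Fbln5 had the widest difference, a log2 fold change of 2.60 (SE 0.22) and an adjusted p of 0.000434, or 6.07 times higher at passage 18. Among enzymes and inhibitors 7 of 8 rose at passage 18: Mmp2 by 2.08 (SE 0.14), Timp2 by 2.08 (SE 0.21), Timp3 by 2.05 (SE 0.26), Lox by 2.03 (SE 0.25), Loxl1 by 1.92 (SE 0.27), Mmp14 by 1.35 (SE 0.15) and Loxl2 by 1.26 (SE 0.26) on the log2 scale. Timp1 did not pass, at 1.06 (SE 0.51). Of interstitial genes Thbs2 (2.18, SE 0.27), Sparc (2.0, SE 0.18), Bgn (1.97, SE 0.29) and Vcan (1.64, SE 0.34) rose, and Fn1 had 1.14 (SE 0.40) with an adjusted p of 0.0706. Fn1 passed with DESeq2 (adjusted p = 0.0195). Thbs1 and Tnc had -0.52 (SE 0.77) and -1.75 (SE 1.44) and passed in neither direction.

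Basement membrane genes went both ways by passage. Lama4 (2.22, SE 0.18), Lama2 (2.04, SE 0.21) and Lamb2 (1.49, SE 0.16) were higher at passage 18. Lama5 (-1.85, SE 0.26, adjusted p = 0.00301) and Lama1 (-1.75, SE 0.31, adjusted p = 0.00796) were lower, as was the fibulin gene Fbln1 (-1.19, SE 0.29, adjusted p = 0.0223). None of the 3 lower genes passed with either passage 18 library left out. Nid2 had -0.85 (SE 0.28) with an adjusted p of 0.0580, and it passed with DESeq2 (adjusted p = 0.0206). Lamb1, Lamc1, Nid1, Hspg2 and Agrn lay between -0.67 and 0.44 and did not pass.

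The cell markers differed between passages as well. Of 19 tested fibroblast and stromal markers 16 were higher at passage 18 and 0 lower, with a median log2 fold change of 2.23. They comprised all 10 that encode matrix proteins and 6 of the 9 others tested. Of 15 germ cell markers 0 were higher and 8 lower, with a median of -0.78. Of 7 tested mitochondrially encoded genes 0 were higher and 1 lower, with 7 of 7 below 0, 5 lower at an unadjusted p under 0.05 and a median of -0.79. By sign alone, 8 of the 31 matrix genes lay below 0, among them the called genes Lama5, Lama1 and Fbln1. Also below 0 were all 15 germ cell markers, the 7 mitochondrially encoded genes and 2 of 19 fibroblast markers. The 16 other called genes lay above 0, as did 17 of the fibroblast markers. Of all 15263 tested genes, 8183 lay at or below 0 and 7080 above, so a shared sign says little. The part of fibroblast-type cells or of RNA quality in the passage differences was not tested.

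**Figure D5:**
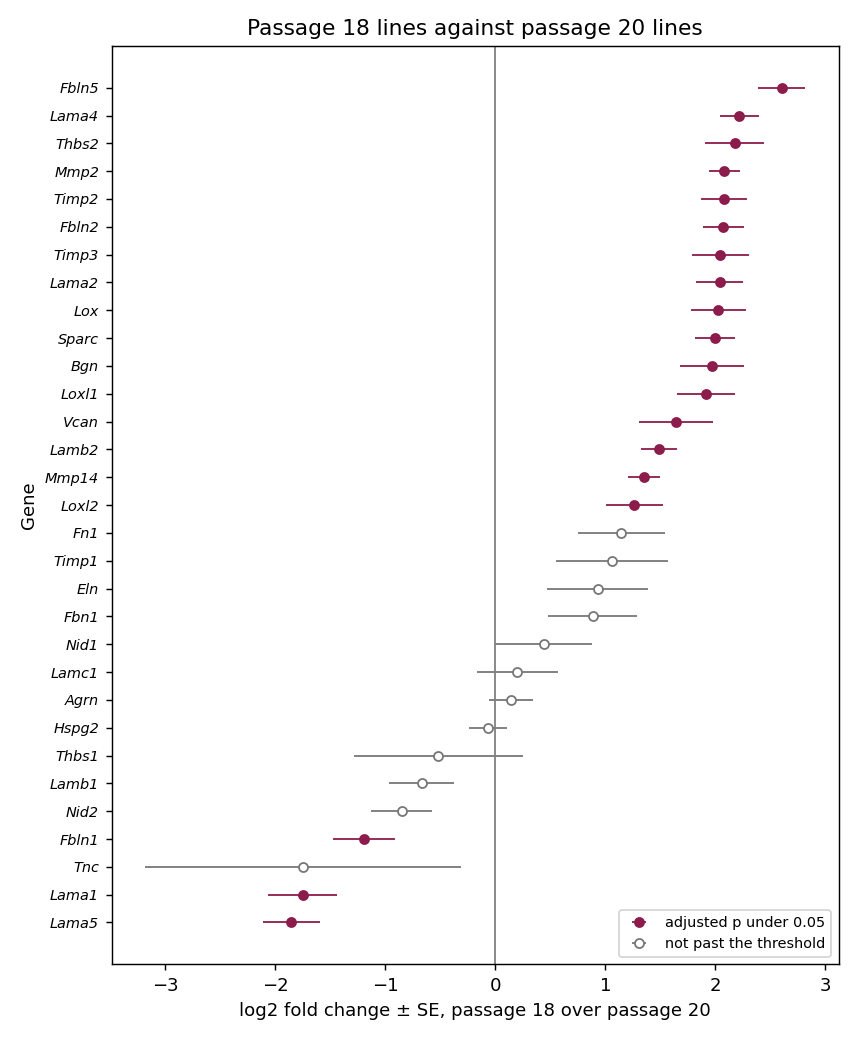
Log2 fold change with SE (edgeR, group as covariate), passage 18 over passage 20, for the 31 tested matrix genes in order of size; filled points have an adjusted p under 0.05. The 16 filled points right of 0 run from 1.26 (Loxl2) to 2.60 (Fbln5) and the 3 left of 0 from -1.85 (Lama5) to -1.19 (Fbln1).

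Other matrix genes of the same pathway were counted as lists, beside 15.8% higher and 12.2% lower in 3 of 3 numbers, and 15.4% higher and 10.4% lower at passage 18, among all tested genes. Of 49 tested further glycoproteins, 0 passed between the groups, 23 were higher in 3 of 3 numbers in lines labelled Ephb2-KO and 0 lower. In that list 25 were higher at passage 18 and 2 lower. Those with the smallest adjusted p at passage 18 were Matn2 (2.63, SE 0.14), a matrilin, Efemp1 (3.08, SE 0.19), a fibulin relative, and Igfbp7 (3.14, SE 0.20). Between groups the smallest p values belonged to Matn4 (0.87, SE 0.56) and the netrin gene Ntn1 (0.56, SE 0.39), neither of which passed.

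Of 18 tested further proteoglycans, 0 passed between the groups, with 8 higher and 1 lower in 3 of 3 numbers, and 9 were higher and 1 lower at passage 18. The counts of 1 lower were below the shares over all genes. The small leucine-rich proteoglycan genes Dcn (3.15, SE 0.17), Prelp (2.18, SE 0.16) and Lum (4.33, SE 0.43) had the smallest adjusted p at passage 18. The cell surface proteoglycan genes Sdc3 (0.76, SE 0.37) and Gpc1 (0.42, SE 0.30) had the smallest p between groups and did not pass. Of 37 tested further enzymes and inhibitors, 0 passed between the groups, with 18 higher and 2 lower in 3 of 3 numbers. By passage 21 of these were higher and 2 lower, led by the protease genes Ctsk (2.86, SE 0.17), Mmp19 (1.94, SE 0.15) and Bmp1 (1.71, SE 0.15). Plod1 (0.47, SE 0.31), a lysyl hydroxylase, and the protease gene Adamts10 (-0.56, SE 0.40) had the smallest p between groups without passing.

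Of 6 tested basement membrane collagens 5 were higher at passage 18 and 0 lower, among them Col4a5 (2.43, SE 0.23), Col4a6 (3.28, SE 0.46) and Col15a1 (2.87, SE 0.62). Between groups Col4a2 (0.45, SE 0.51) and Col18a1 (0.34, SE 0.40) had the smallest p and did not pass. Of 21 tested matrix receptors 0 passed between the groups, with 9 higher and 2 lower in 3 of 3 numbers, and 3 were higher and 4 lower at passage 18. The 3 higher at passage 18 and the 2 lower in 3 of 3 numbers were close to the shares over all genes. The collagen receptor genes Itga11 (2.10, SE 0.27) and Ddr2 (1.84, SE 0.31) were higher there, and the epithelial collagen receptor gene Ddr1 (-1.11, SE 0.23) was lower. The laminin receptor gene Bcam (0.70, SE 0.47) and the integrin gene Itga7 (0.37, SE 0.38) had the smallest p between groups and did not pass. The receptors' median by passage was -0.36, beside 1.27 for the further glycoproteins and 1.26 for the 31 genes. Whether the lists differ from each other was not tested.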

How the data were processed

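RNA-seq counts of 6 libraries were used: 3 lines labelled Ephb2-KO and 3 labelled wild type, as given by the sample titles. Per the file headers, reads were assigned to gene names by the authors with featureCounts 1.4.6-p4 over GENCODE vM3 exons with strand setting 2; the deposited values are raw read counts with each gene's exon length. STAR and build GRCm38.p3 are named in the submitters' processing notes, with versions and settings not given in the sources used here. The header names no option for reads that map to several places, so genes with near-identical copies may be undercounted.

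Counts were tested in R 4.3.3 with edgeR 4.0.16: filterByExpr (15263 genes), TMM scaling, robust quasi-likelihood fits and Benjamini-Hochberg adjustment over all tested genes at a threshold of 0.05. Each SE was derived from the fold change and its F statistic. Alternatives were RLE scaling, DESeq2 1.42.0, other filters, left-out libraries and a replicate block. Deviations from group means correlated at 0.591, 0.734 and 0.852 between same-numbered libraries and at most at 0.0811 otherwise, so by a bound of 0.1 the shared numbers in the titles pair the libraries. Scripts were tested on simulated counts. Figures used matplotlib 3.10.9. The named genes were all 32, and from each other list up to 3 passing genes or the 2 with the smallest p. Each library's value was given for genes of the 32 at an unadjusted p under 0.05 in the unpaired, blocked or passage fit of all 6 libraries. It was also given for the 3 highest by RPKM of each role and for genes under 3 counts in a library. Members and lists were chosen with earlier results of these data known. Depth per library limits low genes such as Lamb3 and Eln.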

Additional observations from a re-analysis of the deposited data

How the results depend on the processing

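Between groups, 0 matrix genes were called under each alternative run, while the count over all genes was 4 with DESeq2 and 4 with the replicate block, against 0 in the unpaired test. Leaving out libraries, alone or by number with the block, gave 0 to 56 genes and a matrix gene median of -0.26 to 0.93 on the log2 scale; within the block alone the median was 0.28 to 0.43. Fbln1 changed sign to 0.07 with the block and 0.01 with no filter on low counts. The pairing comes from the shared numbers; the block changed no other call among the matrix genes. With libraries left out, the following log2 fold changes between groups crossed 0: Lama1 -0.52 to 0.35, Lama2 -0.52 to 1.53, Lama4 -0.86 to 1.44, Lama5 -0.08 to 0.88, Lamb1 -0.19 to 0.51, Lamb2 -0.46 to 0.90, Lamc1 -0.08 to 0.54, Nid2 -0.11 to 0.60, Fn1 -0.05 to 0.93, Sparc -0.72 to 1.28, Tnc -1.75 to 2.29, Thbs1 -0.55 to 1.06, Thbs2 -0.79 to 1.46, Bgn -0.56 to 1.4, Vcan -0.42 to 1.13, Fbln1 -0.32 to 0.57, Fbln2 -0.60 to 1.5, Fbln5 -1.1 to 1.75, Lox -0.71 to 1.33, Loxl1 -0.45 to 1.44, Loxl2 -0.00 to 1.11, Mmp2 -0.60 to 1.52, Mmp14 -0.30 to 0.91, Timp1 -0.26 to 0.63, Timp2 -0.66 to 1.44, Timp3 -0.63 to 1.44. These ranges pool 2 kinds of fit. Leaving 1 library out of the unpaired fit makes the groups unlike in passage. The direction then held for 31, 26 and 11 genes without Ephb2-KO replicate 1, 2 and 3. It held for 19, 25 and 27 without wild-type replicate 1, 2 and 3. Leaving a whole number out of the blocked fit keeps the groups alike in passage. There the direction held for 31, 29 and 30 genes without number 1, 2 and 3. All 31 kept their direction with RLE scaling and DESeq2. Between passages the matrix genes called were 8 to 27 (284 to 8556 over all genes) and their median 1.08 to 1.86 with libraries left out; 20 were called with no group term, 21 with DESeq2 and 26 with no filter on low counts. Of the passage log2 fold changes, Lamc1 -0.24 to 0.84, Nid1 -0.07 to 1.25, Hspg2 -0.22 to 0.10, Tnc -2.7 to 1.87, Thbs1 -1.26 to 1.07 crossed 0. The paired block cannot be fitted beside passage, which is nested in the number. The cause of these shifts was not tested. Depth limits Lamb3 (2 to 16 counts per library) and Eln.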
